A study of Mus musculus with 9 samples.

Results

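The TRIM family of ubiquitin ligases was followed through the count table of mouse pancreatic islets exposed to inflammatory cytokines with or without nanoparticles. Members were the protein-coding genes whose name is Trim followed by a number. Of 68 such genes, 46 had at least 10 counts in at least 3 of the 9 libraries and are reported here, out of 56748 genes in the table. Total RNA of primary islets from C57bl/6 wild-type mice was sequenced as 9 libraries, 3 to a group. Those of the control group had no treatment. The inflamed group spent 48 h with the cytokines IL-1beta, TNF-alfa and IL6 (interleukins 1 beta and 6 and tumor necrosis factor). The particle group had that mixture plus PD-G-MSNPs, mesoporous silica nanoparticles with a polydopamine coat. All 3 groups share strain and genotype, the particles were never given without cytokines in the libraries analysed here, and the question set by the study was whether the particles protect islets under cytokines. The sources used here do not give the age of the mice, nor whether a library pools several animals.

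Most TRIM proteins, though not all, have an N-terminal RING domain that passes ubiquitin from an E2 enzyme to a substrate. B-box zinc fingers and a coiled coil that joins the proteins in pairs follow. The C-terminal end sorts the family into classes. A PRY-SPRY domain binds partners such as viral capsids or antibodies, a COS domain binds microtubules, a PHD finger with a bromodomain reads histone marks, and NHL repeats bind RNA or protein. Many PRY-SPRY members are switched on by interferons and act in antiviral defence, while COS members are best known from neurons and PHD-bromodomain members from gene silencing in the nucleus.

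Library totals ran from 17832949 to 55865759 counts, with inflamed replicate 3 the deepest and particle replicate 1 the shallowest. The 46 members together took 0.116% to 0.176% of counts. Their summed level was 1255 to 1379 CPM (counts scaled to library size with TMM factors) in control, 1359 to 1563 in inflamed and 1391 to 1475 in particle libraries, so the control range overlapped the inflamed range. Levels are given below in CPM for 1 gene across libraries, and in FPKM (the deposited values, which divide fragments by gene length and library size) wherever genes are compared with each other. A mean is followed by ± SD over 3 libraries. A gene was called higher or lower at an adjusted p under 0.05 in the quasi-likelihood test of edgeR, adjusted by Benjamini-Hochberg over the 17276 genes tested, and every adjusted p below comes from that test unless another tool is named. Where the replicates came from (animals, islet preparations or repeat libraries) is not stated in the labels, so p-values measure the spread between these libraries, which may be technical. Whole islets were sequenced, and fewer cells of a type and less RNA per cell cannot be told apart.

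Not every family gene passed the count rule. Of the 22 left out, 7 were listed at 0 in all 9 libraries, among them the muscle ligases Trim54 and Trim63. The member just inside the rule was Trim36, a COS-domain gene with 10 or more counts in 3 libraries. Just outside it were Trim10 with 17 and 14 counts in inflamed replicates 2 and 3 and at most 6 elsewhere, Trim31 with 15 counts in inflamed replicate 2 and 12 in particle replicate 1, and Trim38 with 22 and 52 counts in inflamed replicates 2 and 3 and at most 9 elsewhere. Of the 46 reported members, 35 had at least 10 counts in all 3 control libraries. The other 11 (Trim5, Trim6, Trim15, Trim16, Trim17, Trim30a, Trim30d, Trim36, Trim43a, Trim69 and Trim72) did not, so their entry depended on libraries outside the control group or on part of it, and counts over all 46 lean toward genes that were high in treated islets.

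With the cytokines a larger share of members than of all genes rose, in a count that leans toward genes high in treated islets, and the share that fell was near that of all genes. In inflamed against control islets 17 of 46 members rose (37%, against 20.7% of all genes tested) and 9 fell (19.6%, against 19%). At least 2-fold changes were called for 14 members upward (30.4%, against 14.8% of all genes) and 4 downward (8.7%, against 14.7%). Among the 35 members already present in every control library, 9 rose (25.7%), 9 fell (25.7%) and 17 were not called, where all genes with 10 or more counts in every control library gave 18.8% higher and 21.7% lower. Among the other 11 members 8 rose and 3 were not called. The median log2 fold change was 0.45 over the members and 0.05 over all genes tested. DESeq2 called 18 members higher and 9 lower, against 22.1% and 22.7% of all genes. Levels did not overlap between the groups for 21 members that were higher and 10 that were lower in inflamed islets, against 28.3% and 28.5% of all genes. The number of lower members was 4 without control replicate 3 or without inflamed replicate 1, 5 without control replicate 1 or without inflamed replicate 3, and 4 when library totals replaced TMM factors. The number of higher members was 17 with library totals.

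By C-terminal class, 14 of the 26 reported members with a PRY-SPRY domain rose and 5 fell. Of these 26, 10 did not have 10 counts in every control library, and 8 of the 14 that rose were among those 10, so the count leans toward genes that were high after treatment. Among the 16 PRY-SPRY members present in every control library 6 rose (37.5%) and 5 fell (31.2%), where all genes present there gave 18.8% and 21.7%, and the median log2 fold change was 0.26. The 4 COS members gave 1 higher (Trim67) and 2 lower (Trim9 and Trim46), and the 4 PHD-bromodomain members gave 1 higher (Trim24) and 1 lower (Trim66). Trim12a was the 1 of 4 members without any of these C-terminal domains that rose. None of the 3 NHL members (Trim2, Trim3 and Trim32) and neither of the transmembrane members (Trim13 and Trim59) passed the test, and of the 3 members with other single domains (Trim23, Trim37 and Trim45) Trim37 fell.

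**Figure D1:**
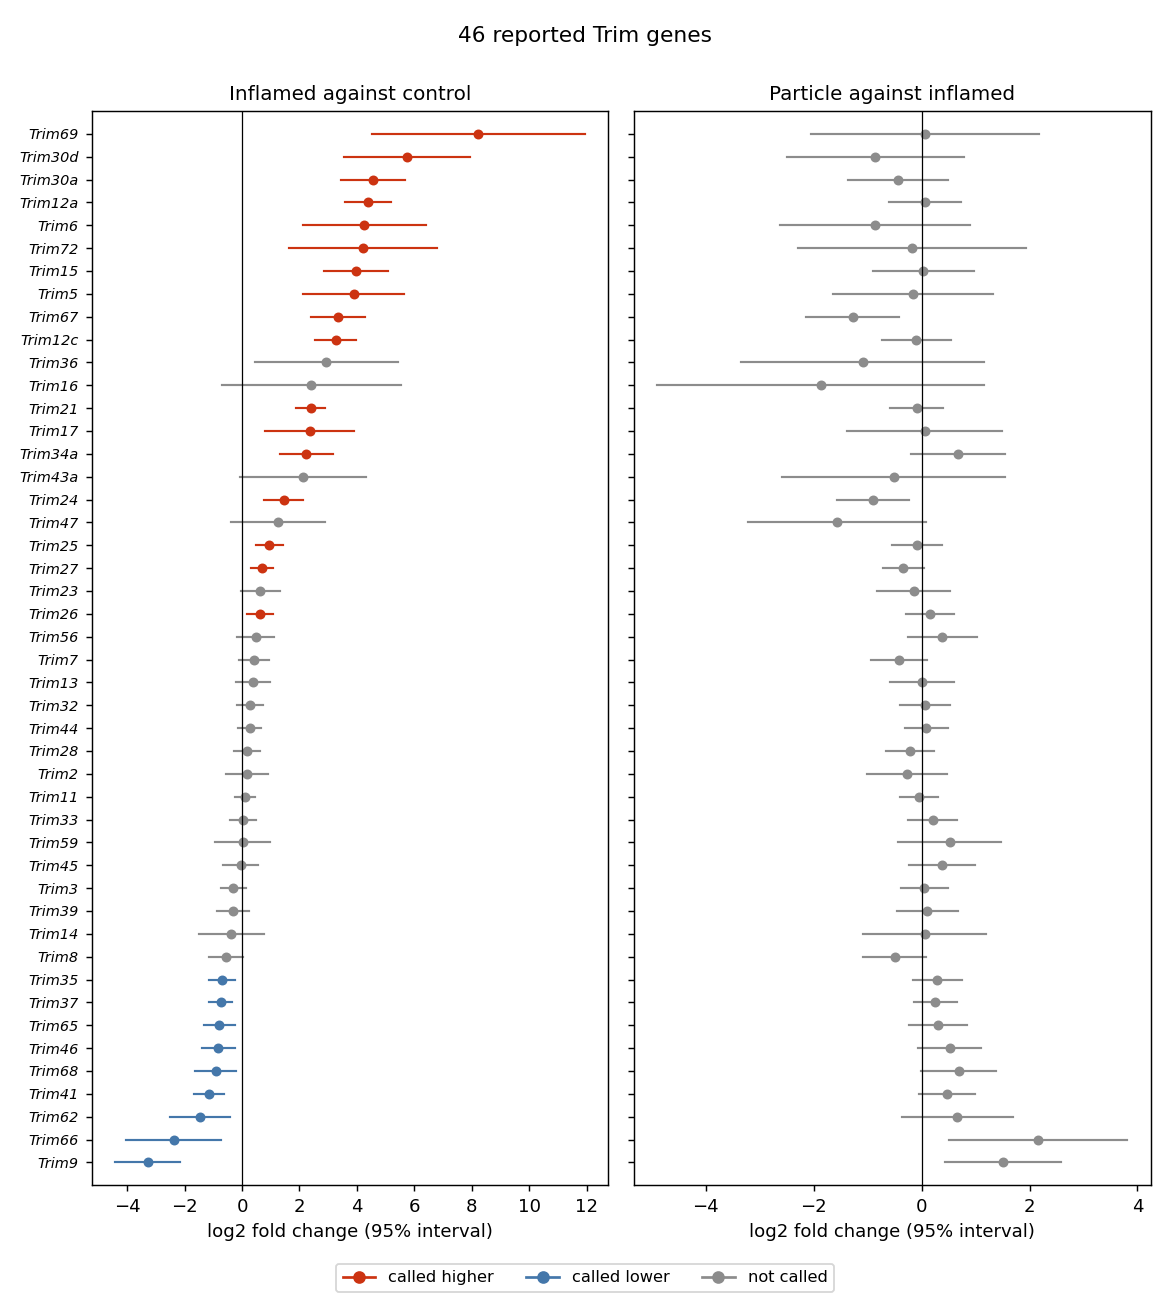
log2 fold change of each of the 46 reported members, as points with 95% intervals, for inflamed against control islets on the left and particle against inflamed islets on the right. Red marks the 17 members called higher, blue the 9 called lower and grey those not called, and no point in the right panel is called. The Trim69 estimate rests on control libraries that were all at 0.

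A group of neighbouring genes lies on chromosome 7. Between 103868000 and 104157056 on chromosome 7 (GRCm39, the build of the deposited tables) lie 10 family genes, the mouse relatives of the human group that holds the retroviral restriction factor TRIM5. Of these, 7 were reported and all 7 rose in inflamed islets (Trim6, Trim34a, Trim5, Trim12a, Trim12c, Trim30a and Trim30d). Of the 7, only Trim12a, Trim12c and Trim34a had 10 counts in every control library, and Trim5, Trim6, Trim30a and Trim30d met the count rule through treated libraries, so that their rise is in part set by the rule. The other 3 (Trim30b, Trim30c and Trim34b) had at most 8 counts in any library. The interval holds 8 further annotated genes, none protein-coding, of which 1 was tested (Gm15133) and rose, and Gm15133 overlaps Trim12a on the opposite strand.

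The starts of these genes are shown because 6 of the 7 carry the core of the interferon-stimulated response element (ISRE), the DNA motif bound by interferon regulatory factors and the ISGF3 complex. The search used GAAA, any 2 bases and GAAA again, on both strands, in windows from 250 bases before to 50 bases after each RefSeq start (GRCm38.p6, an earlier build than that of the tables, matched by gene symbol). In the lines below the strand is that of the gene, letters run 5′ to 3′, and capitals mark the motif, which reads as its reverse complement in all of these 6 genes. The Trim6 window held no match.
Trim5 (chr7:104288106-104288195, minus strand): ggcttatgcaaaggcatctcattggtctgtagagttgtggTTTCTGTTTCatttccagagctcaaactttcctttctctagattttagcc
Trim12a (chr7:104315466-104315525, minus strand): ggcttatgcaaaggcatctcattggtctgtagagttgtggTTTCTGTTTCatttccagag
Trim12c (chr7:104353329-104353418, minus strand): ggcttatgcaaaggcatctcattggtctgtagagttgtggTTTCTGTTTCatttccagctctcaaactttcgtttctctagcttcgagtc
Trim30a (chr7:104465180-104465269, minus strand): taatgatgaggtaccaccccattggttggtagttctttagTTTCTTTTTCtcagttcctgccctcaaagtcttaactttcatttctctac
Trim30d (chr7:104507841-104507930, minus strand): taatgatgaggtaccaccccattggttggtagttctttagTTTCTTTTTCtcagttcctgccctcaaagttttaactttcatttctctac
Trim34a (chr7:104244427-104244486, plus strand): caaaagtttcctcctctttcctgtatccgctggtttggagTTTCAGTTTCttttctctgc

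These stretches are not independent of each other. The 60 bases of Trim12a were 100% identical to those of Trim5, Trim5 and Trim12c shared 83 of 90 bases (92.2%), and Trim30a and Trim30d shared 89 of 90 (98.9%). Across these sets 48.9% of bases were the same in Trim5 and Trim30a and 43.3% in Trim12c and Trim34a. All these shares compare the stretches position by position from their first base, without gaps. A likeness shifted by a few bases is missed in this way, so whether these sets are related was not tested. The motif began 49 bases before the start in Trim5, 29 before it in Trim12c, 36 before it at the start shown for Trim30a and 41 before it in Trim30d, and 10 bases after it in Trim12a and Trim34a. Trim30a has 2 starts in RefSeq, and at the other the motif began 2 bases after it.

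The summed level of the 7 genes was 7.31, 8.69 and 6.06 CPM in the control libraries, 62.7, 79.9 and 115 CPM in the inflamed and 108, 58.1 and 85.1 CPM in the particle libraries. Every treated library was above every control library, and the ranges of inflamed and particle islets overlapped. The plot of single genes in this group shows the same separation in each of the 7.

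Trim12a (ENSMUSG00000066258, chromosome 7 from 103949101 to 103964673, GRCm39) encodes a Trim5-like protein that lacks the PRY-SPRY domain. Its level was 0.619, 1.33 and 1.04 CPM in control, 17.2, 18.4 and 26.7 CPM in inflamed and 28.9, 16.4 and 19.5 CPM in particle islets. All control libraries were low and the treated groups overlapped. It rose by a log2 fold change of 4.38 in inflamed against control islets (SE 0.364, adjusted p = 1.56e-05), the smallest adjusted p of the family. Trim12c (ENSMUSG00000057143, chromosome 7 from 103987961 to 104002569), its neighbour with an intact PRY-SPRY domain, was at 4.21, 3.36 and 3.19 CPM in control, 22.5, 35.1 and 45.5 CPM in inflamed and 44.0, 24.5 and 28.1 CPM in particle islets. It rose by 3.26 on the log2 scale (SE 0.324, adjusted p = 5.13e-05), and again no treated library reached down to the controls. Trim5 (ENSMUSG00000060441, chromosome 7 from 103912593 to 103937301), related to the capsid-binding restriction factor of primates, was at 0.165, 0.414 and 0.0359 CPM in control, 2.46, 2.48 and 4.07 CPM in inflamed and 4.73, 1.21 and 2.14 CPM in particle islets. Its log2 fold change of 3.89 (SE 0.799, adjusted p = 0.00343) was 4.85 without control replicate 2, the highest of the 3 low control values. These 3 genes are near copies of each other in part. Of the 50-base windows of their transcripts (GENCODE M21), 29.5% in Trim5, 28.8% in Trim12c and 7.86% in Trim12a also occur in another family gene, so the split of reads between them is uncertain.

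Trim30a (ENSMUSG00000030921, chromosome 7 from 104058232 to 104114400) encodes an inducible protein known to restrain NF-kB signalling in macrophages by removing the adaptors Tab2 and Tab3. It was at 0.661, 0.966 and 0.323 CPM in control, 11.8, 10.5 and 23.2 CPM in inflamed and 11, 7.15 and 15.6 CPM in particle islets. The inflamed libraries were all above the controls, with replicate 3 highest, and Trim30a rose by 4.56 on the log2 scale (SE 0.508, adjusted p = 0.000111). Its paralog Trim30d (ENSMUSG00000057596, chromosome 7 from 104119221 to 104157056) was at 0, 0.0460 and 0.108 CPM in control, 2.05, 1.01 and 6.26 CPM in inflamed and 1.28, 1.33 and 2.57 CPM in particle islets. Its log2 fold change of 5.76 (SE 0.998, adjusted p = 0.00142) was 6.84 without control replicate 3 and 4.66 without inflamed replicate 3. Windows shared with other family genes made up 5.98% of Trim30a and 7.49% of Trim30d, and Trim30d also overlaps the pseudogene Gm16464 on its own strand.

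Trim34a (ENSMUSG00000056144, chromosome 7 from 103893664 to 103911441) was at 1.57, 2.58 and 1.29 CPM in control, 6.09, 11 and 8.34 CPM in inflamed and 17.4, 7.11 and 16.3 CPM in particle islets. It rose by 2.23 on the log2 scale (SE 0.420, adjusted p = 0.00218), and 2 of the 3 particle libraries lay above all inflamed ones. Windows shared with Trim34b made up 39.8% of its transcript, but Trim34b itself had at most 3 counts per library. Trim6 (ENSMUSG00000072244, chromosome 7 from 103868000 to 103884359), which builds free ubiquitin chains that activate the kinase Ikbke, was at 0.0826, 0 and 0.0718 CPM in control, 0.697, 1.28 and 1.30 CPM in inflamed and 0.443, 0.442 and 0.915 CPM in particle islets. It rose by 4.25 on the log2 scale (SE 0.973, adjusted p = 0.00596) from a level near the detection limit.

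**Figure D2:**
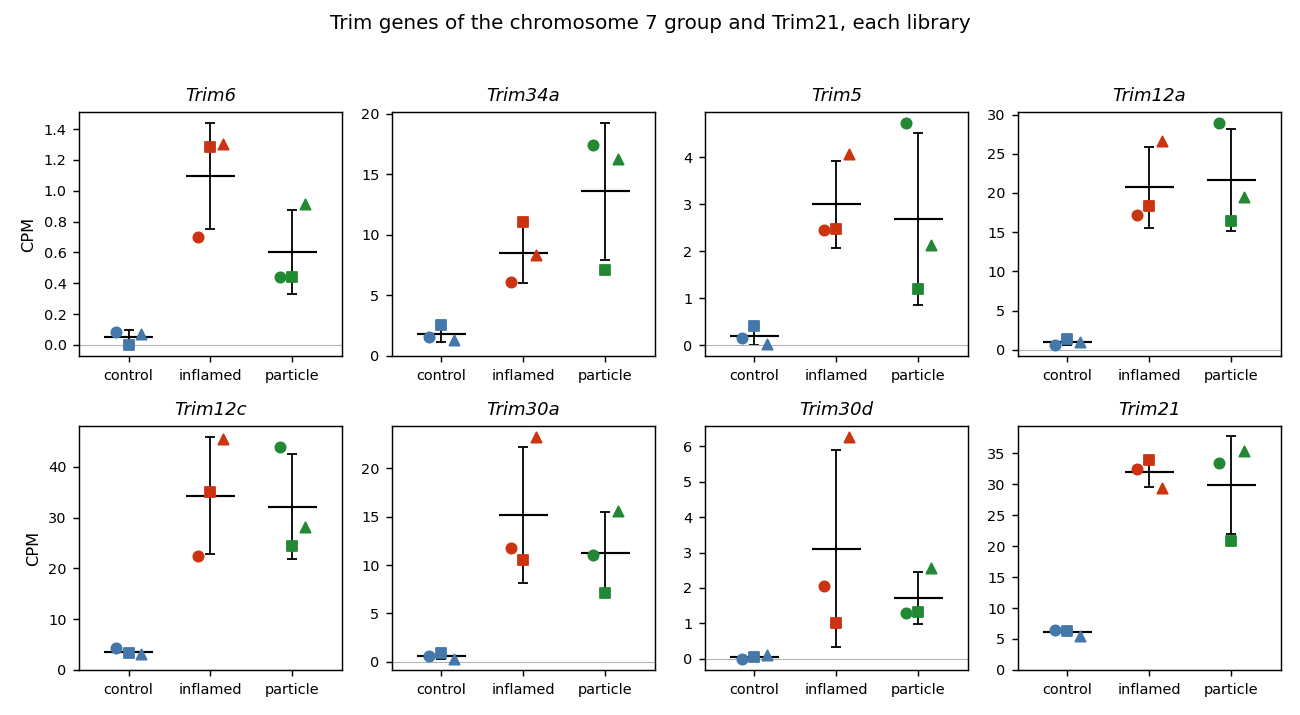
CPM of the 7 reported Trim genes of the chromosome 7 group and of Trim21 in each library (points; circle, square and triangle are replicates 1, 2 and 3), with the mean as a line and the SD as bars, n = 3. Each panel has its own linear axis, and in every panel the 3 control libraries lie below all inflamed and particle libraries.

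Outside the chromosome 7 group, Trim21, Trim25, Trim26, Trim15 and Trim27 also rose, while other members that act in nucleic acid sensing fell (Trim65) or were not called (Trim56 and Trim14). Trim21 (ENSMUSG00000030966, chromosome 7 from 102207128 to 102214693), a cytosolic receptor for antibody-coated particles, was at 6.52, 6.26 and 5.53 CPM in control, 32.5, 33.9 and 29.4 CPM in inflamed and 33.5, 20.9 and 35.4 CPM in particle islets. Its replicates were close within control and inflamed islets, and it rose by 2.39 on the log2 scale (SE 0.235, adjusted p = 4.82e-05). Trim25 (ENSMUSG00000000275, chromosome 11 from 88890202 to 88911119), which ubiquitinates the RNA sensor RIG-I and is itself modified by Isg15, was at 47.4, 54.0 and 49.2 CPM in control, 79.9, 113 and 98.6 CPM in inflamed and 115, 76.0 and 83.6 CPM in particle islets. Trim25 was thus already abundant in untreated islets and rose by 0.95 on the log2 scale (SE 0.210, adjusted p = 0.00494).

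Trim26 and Trim15 lie side by side on chromosome 17 between 37148026 and 37221106, next to the major histocompatibility complex, with 3 family genes below the count rule. Trim26 (ENSMUSG00000024457), a regulator of interferon induction, was at 48.5, 47.0 and 47.7 CPM in control, 76.8, 78.5 and 66.0 CPM in inflamed and 108, 69.8 and 69.7 CPM in particle islets. It rose by 0.63 on the log2 scale (SE 0.204, adjusted p = 0.0309), a call lost when any of the 3 control libraries or inflamed replicate 1 or 2 was left out. The call was also lost with no count filter and in a limma fit on log2(FPKM + 1) (adjusted p up to 0.12 over these runs). Trim15 (ENSMUSG00000050747), a protein of focal adhesions, was at 0.330, 0.506 and 0.359 CPM in control, 4.37, 4.40 and 9.92 CPM in inflamed and 8.17, 3.86 and 7.19 CPM in particle islets. All 6 treated libraries exceeded all controls, and Trim15 rose by 3.96 on the log2 scale (SE 0.503, adjusted p = 0.000262).

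Trim27 (ENSMUSG00000021326, chromosome 13 from 21363615 to 21378894), a ligase of endosomes and nucleus, was at 73.7, 65.4 and 72.2 CPM in control, 105, 119 and 115 CPM in inflamed and 74.5, 97.4 and 96.2 CPM in particle islets. The particle libraries lay between the other groups without overlap with either. Trim27 rose in inflamed islets by 0.68 on the log2 scale (SE 0.175, adjusted p = 0.0105), with an adjusted p of 0.0515 without control replicate 3.

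The motif shown above for the chromosome 7 group was counted over the family. RefSeq windows existed for 36 of the 46 members, with 50 starts. The ISRE core was present in 8 of the 16 higher members with a window, in 0 of 7 lower members and in 1 of 13 members not called (Trim2, at 1 of its 5 starts). Of all mouse promoter windows of the same length 3.44% hold it, and 3.99% of genes hold it in at least 1 window. The 8 higher members are not independent of each other. The stretches of Trim5, Trim12a and Trim12c are near copies, as are those of Trim30a and Trim30d. Trim5, Trim30a and Trim30d also lacked 10 counts in every control library. Beside the 6 genes of the chromosome 7 group the higher members were Trim21 and Trim26, whose starts are shown for the overlapping double copies of the motif (capitals).
Trim21 (chr7:102565453-102565509, minus strand): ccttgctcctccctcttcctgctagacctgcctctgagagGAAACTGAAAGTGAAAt
Trim26 (chr17:36836946-36837041, plus strand): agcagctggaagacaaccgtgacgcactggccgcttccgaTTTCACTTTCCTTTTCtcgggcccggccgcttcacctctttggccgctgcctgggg

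A gamma-activated site, TTCNNNGAA, was present in 3 members (Trim15, Trim45 and Trim46), 1 of them higher, against 9.55% of genes. An NF-kB site (GGGA, any base and TTTCC) was in no member window, against 0.466% of genes. Both were searched on both strands, and neither match nor absence in these windows measures binding.

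**Figure D3:**
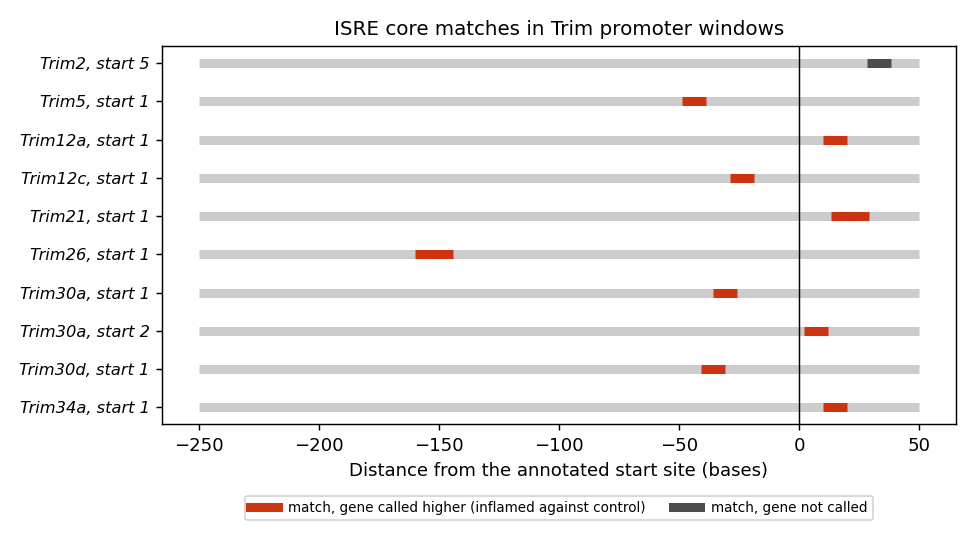
Position of the ISRE core motif in the windows (grey bars, from 250 bases before to 50 after an annotated start at 0) of the members that hold it, in bases along the gene's strand. Red matches belong to the 8 members called higher in inflamed islets and the dark match to Trim2, which was not called. Trim26 is the farthest upstream of the red matches.

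Members with other roles rose as well. Trim67 (ENSMUSG00000036913, chromosome 8 from 125519831 to 125561452), a COS-domain protein known from axon guidance, was at 3.14, 3.96 and 3.80 CPM in control and 58.8, 29.7 and 23.2 CPM in inflamed islets. Inflamed replicate 1 was the highest, and Trim67 rose by 3.35 on the log2 scale (SE 0.428, adjusted p = 0.000272). Trim24 (ENSMUSG00000029833, chromosome 6 from 37847746 to 37943231), a chromatin reader and partner of nuclear receptors, was at 23.9, 20.7 and 18.0 CPM in control and 59.3, 56.4 and 56.0 CPM in inflamed islets. Its inflamed libraries were close together and far from the controls (log2 fold change 1.46, SE 0.308, adjusted p = 0.00403). Marker genes of nerve and Schwann cells, in which COS members are known, summed to 17.0 to 31.2 CPM in control and to 62.9, 10.04 and 108 CPM in inflamed replicates 1, 2 and 3. The part of those cells in the Trim67 value was not tested.

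Of the low members, Trim69, Trim17 and Trim72 were higher after cytokines. None of them had 10 counts in every control library, so their rise is in part set by the count rule. Trim69 (ENSMUSG00000033368, chromosome 2 from 121991181 to 122009508), a ligase that binds microtubules, was at 0 in all 3 control libraries, at 1.91, 2.15 and 0.204 CPM in inflamed and at 0.935, 0.723 and 2.75 CPM in particle islets. Against a floor of 3 counts over the control group it was at least 25.1-fold higher in inflamed islets (adjusted p = 0.00443) and at least 36.1-fold higher in particle islets (adjusted p = 0.0111). Trim17, known from neuronal death, rose by a log2 fold change of 2.36 (adjusted p = 0.0213), and it was not called without replicate 1 or 3 of the controls (up to 0.0866). Its log2 fold change was 3.06 without control replicate 2. Trim72, a membrane repair protein of muscle, was at 4.32, 0.367 and 3.49 CPM in inflamed against at most 0.287 CPM in control islets (log2 fold change 4.21, adjusted p = 0.0151, lost without replicate 1 or 2 of the controls, and 5.26 without control replicate 3). The Trim72 call was also lost in a limma fit on log2(FPKM + 1). Muscle markers summed to at most 7.72 CPM in control and at most 3.76 CPM in inflamed libraries. Trim17 overlaps the histone genes H2aw and H3f4 on its own strand and Trim69 lies within Patl2 on the opposite strand, so reads at Trim17 in particular are uncertain.

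Of the 9 members that fell, Trim9 changed most. Trim9 (ENSMUSG00000021071, chromosome 12 from 70291307 to 70394388), the closest relative of Trim67 and known to control vesicle release at nerve endings, was at 13.0, 19.3 and 15.6 CPM in control and 1.53, 1.19 and 2.10 CPM in inflamed islets. Every inflamed library was far below every control library, and Trim9 fell by 3.29 on the log2 scale (SE 0.514, adjusted p = 0.000835). The paralogs Trim9 and Trim67 thus moved in opposite directions, and no 50-base window of either transcript occurs in another family gene. Trim46 (ENSMUSG00000042766), another COS member, which bundles microtubules at the start of axons, was at 50.5, 37.9 and 58.0 CPM in control, 31.2, 28.4 and 23.0 CPM in inflamed and 43.3, 49.2 and 25.5 CPM in particle islets (inflamed against control log2 fold change -0.83, adjusted p = 0.0287). It overlaps the abundant gene Krtcap2 on the opposite strand over 344 bases.

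Abundant ligases also fell. Trim41 (ENSMUSG00000040365, chromosome 11 from 48697231 to 48708180), a ligase for protein kinase C, was at 129.9, 119 and 132 CPM in control and 58.0, 55.3 and 58.6 CPM in inflamed islets, with tight replicates in both groups (log2 fold change -1.15, SE 0.238, adjusted p = 0.00361). Trim37 (ENSMUSG00000018548), a peroxisome and centrosome ligase, went from 57.3, 44.2 and 44.7 to 30.4, 29.8 and 27.0 CPM, and was at 35.7, 37.8 and 30.1 CPM in particle islets (inflamed against control log2 fold change -0.75, adjusted p = 0.00852). Trim35 (ENSMUSG00000022043), which binds pyruvate kinase, went from 90.6, 121 and 101 to 55.8, 82.8 and 54.6 CPM, and was at 76.6, 84.3 and 75.2 CPM in particle islets (inflamed against control log2 fold change -0.69, adjusted p = 0.0221). For none of these 3 genes did control and inflamed islets overlap, but the Trim35 call was lost with library totals and when control replicate 2 or replicate 1 or 3 of the inflamed group was left out (adjusted p up to 0.126).

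Trim66 (ENSMUSG00000031026), a chromatin reader of the Trim24 class, was at 10.4, 4.69 and 9.18 CPM in control and 0.930, 3.21 and 0.594 CPM in inflamed islets. It fell by 2.38 on the log2 scale (adjusted p = 0.0277), with a log2 fold change of -3.44 without inflamed replicate 2. In 4 of the other omissions among these 6 libraries (all but control replicate 2) the call was lost. The Trim66 call was also lost with no count filter (adjusted p up to 0.0913 over these runs). Trim62 (ENSMUSG00000041000), linked to epithelial polarity, was at 30.2, 19.5 and 24.7 CPM in control, 7.90, 16.0 and 3.47 CPM in inflamed and 14.5, 19.6 and 8.94 CPM in particle islets (inflamed against control log2 fold change -1.45, adjusted p = 0.0315, -2.14 without inflamed replicate 2). Trim65 (ENSMUSG00000054517), which ubiquitinates the RNA sensor Mda5, was at 9.83, 11.1 and 11.4 CPM in control, 5.11, 7.15 and 6.35 CPM in inflamed and 7.09, 7.27 and 8.50 CPM in particle islets (inflamed against control log2 fold change -0.80, adjusted p = 0.0245). Control and inflamed islets did not overlap for any of these 3 genes. Trim68 (ENSMUSG00000073968) was at 9.95, 10.8 and 9.26 CPM against 3.49, 4.81 and 7.43 CPM (log2 fold change -0.92, adjusted p = 0.0389). The Trim46, Trim62, Trim65 and Trim68 calls were each lost with library totals and when some single libraries were left out (adjusted p up to 0.118). Those libraries were control replicates 1 and 3 with inflamed replicates 2 and 3 for Trim46, control replicates 1 and 3 with inflamed replicates 1 and 3 for Trim62, control replicates 2 and 3 with inflamed replicate 1 for Trim65, and each of the 3 controls with inflamed replicates 1 and 2 for Trim68. Trim62 and Trim65 were also not called with no count filter, nor was Trim68 with the replicate number as a block in the fit. Trim65 overlaps Trim47 on the same strand over 5365 bases.

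Beside these losses stood lower endocrine markers in the same libraries. Alpha cell markers (7 genes) summed to 7663 to 27757 CPM in control and 152 to 533 CPM in inflamed libraries, beta cell markers (10 genes) to 341800 to 360110 and 123580 to 228970 CPM, and delta and PP markers (5 genes) to 1959 to 5876 and 165 to 711 CPM. None of the hormone genes was at 0. Macrophage markers (16 genes, of which 15 were tested, 13 rose and 1 fell) summed to 355 to 458 CPM in control and 1319 to 1372 CPM in inflamed libraries. Of all genes tested 20.7% rose and 19% fell. The part of these shifts in the Trim changes was not tested.

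The most abundant member did not pass the test. Trim28 (ENSMUSG00000005566), the KAP1 corepressor that silences transposable elements, held the highest FPKM of the family in each group, at 52.2 ± 8.47 in control, 57.0 ± 8.20 in inflamed and 48.6 ± 1.30 in particle islets (SD, n = 3). Its CPM was 248, 174 and 224 in control, 247, 276 and 206 in inflamed and 199.95, 216 and 213 in particle islets, which overlap (inflamed against control log2 fold change 0.18, 95% interval -0.27 to 0.62, adjusted p = 0.512). Below it in control islets came Trim41 at 36.5 ± 1.60 FPKM, Trim35 at 22.8 ± 3.72 and Trim8 at 22.3 ± 3.37, and the last 2 of these did not differ beyond their spread. In inflamed islets the next were Trim27 at 20.04 ± 1.46, Trim44 at 18.9 ± 2.91, Trim25 at 16.5 ± 2.96 and Trim41 at 15.9 ± 0.457 FPKM, neighbours within 1 SD of each other. Trim12c moved from rank 29 of 46 by FPKM in control to rank 11 in inflamed islets, Trim21 from 24 to 12, and Trim9 from 28 to 46.

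Other members named by role were also not called. Trim33 (ENSMUSG00000033014), the TGF-beta cofactor of the same class as Trim24, was at 22.8, 24.5 and 21.3 CPM in control, 26.8, 20.4 and 23.5 CPM in inflamed and 25.6, 22.2 and 33.7 CPM in particle islets (inflamed against control log2 fold change 0.04, interval -0.41 to 0.50, adjusted p = 0.884). Trim2 (ENSMUSG00000027993), an NHL ligase of neurons, was at 7.68, 10.4 and 10.5 CPM in control, 13.4, 5.96 and 12.9 CPM in inflamed and 7.14, 7.92 and 11.8 CPM in particle islets (inflamed against control log2 fold change 0.18, interval -0.57 to 0.92, adjusted p = 0.706). Groups overlapped for both genes. Trim8 (ENSMUSG00000025034), which promotes NF-kB signalling, was at 93.3, 67.0 and 85.7 CPM in control and 64.2, 59.1 and 43.6 CPM in inflamed islets, without overlap (log2 fold change -0.56, adjusted p = 0.114, and 0.0331 without particle replicate 2). Trim56 (ENSMUSG00000043279), a ligase of the STING pathway, was at 25.6, 35.1 and 31.3 CPM in control, 56.6, 44.6 and 27.4 CPM in inflamed and 74.1, 40.1 and 53.1 CPM in particle islets (inflamed against control log2 fold change 0.48, adjusted p = 0.21). Trim14 (ENSMUSG00000039853), an adaptor at mitochondria, was at 5.0, 6.76 and 5.31 CPM in control, 2.74, 8.16 and 2.30 CPM in inflamed and 7.19, 2.73 and 3.75 CPM in particle islets (inflamed against control log2 fold change -0.38, adjusted p = 0.588, and -1.18 without inflamed replicate 2, adjusted p = 0.0686). Trim14 lies across the opposite-strand gene Nans, whose counts were far higher, so its value is uncertain. Trim16, an autophagy-linked member, was at 5.96 CPM in inflamed replicate 3 and at most 1.33 CPM in all other libraries, and Trim47 was highest in the same library at 14.0 CPM. That library also held acinar markers at 2630 CPM, against 28.5 and 34.3 CPM in the other inflamed libraries. Acinar markers were also at 1279 CPM in control replicate 2 and 3010 CPM in particle replicate 2, where Trim16 was at 0.920 and 1.33 CPM. The part of those cells in the Trim16 and Trim47 values was not tested.

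To ask what the particles changed under cytokines, particle islets were compared with inflamed islets. Neither a member nor any other gene was called by edgeR's quasi-likelihood test (0 of 46 members, 0% of 17276 genes). Levels did not overlap for 0 higher members (8.87% of all genes) and for 2 lower ones (Trim24 and Trim27; 6.82% of all genes). At an unadjusted p under 0.05 there were 2 higher members (Trim9 and Trim66; 4.35%, against 9.58% of all genes) and 2 lower (Trim67 and Trim24; 4.35%, against 5.49%). DESeq2 called 1 member lower (Trim67, adjusted p = 0.0395; 1.72% of all genes) and 0 higher (2.82% of all genes). The median log2 fold change was 0.04 over the members and 0.04 over all genes. Without particle replicate 3, edgeR called Trim9 higher (adjusted p = 0.0451) and Trim24 and Trim67 lower (0.0128 and 0.0405).

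For the chromosome 7 group and the other defence genes that rose with cytokines no difference passed the test, and the intervals give the sizes of difference that the libraries allow. The log2 fold change of particle against inflamed islets was -0.17 for Trim5 (95% interval -1.65 to 1.31), -0.86 for Trim6 (-2.62 to 0.89) and -0.86 for Trim30d (-2.49 to 0.78), the widest of the group. It was 0.06 for Trim12a (95% interval -0.61 to 0.72), -0.10 for Trim12c (-0.74 to 0.55), -0.43 for Trim30a (-1.36 to 0.49) and 0.68 for Trim34a (-0.19 to 1.54). For Trim21 it was -0.09 (-0.58 to 0.39), for Trim25 -0.09 (-0.54 to 0.37), for Trim26 0.16 (-0.29 to 0.61) and for Trim15 0.03 (-0.90 to 0.97). In the same particle libraries the macrophage markers summed to 428 to 654 CPM, below the 1319 to 1372 CPM of inflamed islets, and none of the 15 tested was called. The part of macrophages in the level of the Trim genes was not tested.

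The members with the smallest unadjusted p varied between the particle libraries. Trim67 was at 13.3, 9.12 and 23.5 CPM in particle islets, against 23.2 to 58.8 CPM in inflamed and 3.14 to 3.96 CPM in control islets. Particle replicate 3 lay at the lowest inflamed value, and the difference was a log2 fold change of -1.28 (interval -2.14 to -0.42, adjusted p = 0.182). Trim24 was at 22.2, 20.6 and 49.6 CPM in particle islets, so that replicates 1 and 2 lay at the control level and replicate 3 near the inflamed level (log2 fold change -0.90, interval -1.56 to -0.23, adjusted p = 0.21). The opposite pattern appeared for 2 members that had fallen with cytokines. Trim9 was at 3.0, 8.72 and 2.09 CPM in particle islets, highest in replicate 2 (log2 fold change 1.50, interval 0.43 to 2.58, adjusted p = 0.2), and its log2 fold change was 0.64 without that library (adjusted p = 0.585). Trim66 was at 12.7, 6.35 and 1.79 CPM, with replicates 1 and 2 in or above the control range (log2 fold change 2.16, interval 0.51 to 3.81, adjusted p = 0.218), and 1.40 without particle replicate 1 or 3.21 without inflamed replicate 2. Trim68 followed, at 9.50, 9.56 and 6.36 CPM (log2 fold change 0.68, interval -0.01 to 1.38, adjusted p = 0.343).

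Trim41 also had its highest particle value in replicate 2, at 112 CPM against 67.5 and 57.6 CPM in the others. That library held the alpha cell markers at 8031 CPM, against 501 and 132 CPM in particle replicates 1 and 3, and its delta and PP markers were at 2540 CPM against 111 and 127 CPM. Its acinar markers were at 3010 CPM against 6.40 and 219 CPM. Beta cell markers were at 240210 CPM in that library, against 87557 and 149140 CPM. Endothelial markers were at 31.9 CPM against 7.29 and 7.28 CPM, and stellate and pericyte markers at 72.7 CPM against 18.3 and 20.8 CPM. Macrophage markers were lower in it, at 428 CPM against 544 and 654 CPM. The part of this difference in cell types in the Trim9 and Trim41 values was not tested.

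**Figure D4:**
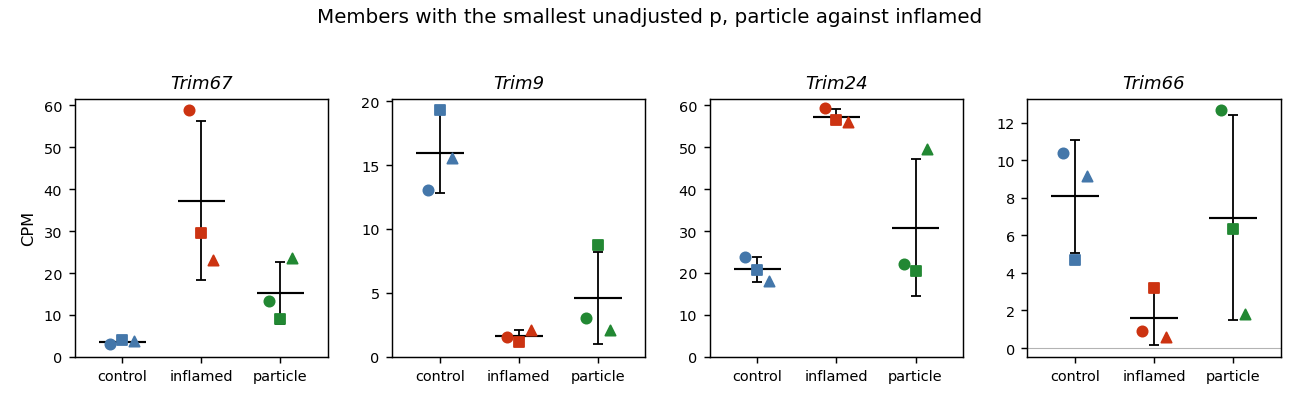
CPM of Trim67, Trim9, Trim24 and Trim66, the 4 members with the smallest unadjusted p for particle against inflamed islets, in each library (circle, square and triangle are replicates 1, 2 and 3), with the mean as a line and the SD as bars, n = 3. Particle libraries are spread over the range of the control and inflamed libraries, except Trim66 in particle replicate 1 at 12.7 CPM, above the highest control library at 10.4 CPM. For Trim24 particle replicate 3 sits at 49.6 CPM and the other particle libraries at 22.2 and 20.6 CPM.

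Against control, particle islets had 15 of 46 members higher (32.6%, against 11.4% of all genes tested) and 2 lower (4.35%, against 5.92%). Levels did not overlap for 20 members that were higher and 6 that were lower, against 22.9% and 20.6% of all genes. This comparison shares its control libraries with that of inflamed islets. Called higher were the 7 genes of the chromosome 7 group together with Trim15, Trim17, Trim21, Trim25, Trim26, Trim67, Trim69 and Trim72, of which 7 were among the 35 members present in every control library (20%, where all such genes gave 9.92% higher and 6.87% lower). The log2 fold changes were 4.43 for Trim12a (SE 0.365, adjusted p = 1.58e-05), 3.16 for Trim12c (SE 0.323, adjusted p = 7.76e-05), 2.29 for Trim21 (SE 0.234, adjusted p = 7.78e-05) and 2.91 for Trim34a (SE 0.429, adjusted p = 0.00119). They were 4.12 for Trim30a (adjusted p = 0.000287), 4.0 for Trim15 (0.000381), 2.08 for Trim67 (0.00751), 0.87 for Trim25 (0.0193) and 0.79 for Trim26 (0.0254). Trim24 and Trim27, higher in inflamed islets, were not called here, at log2 fold changes of 0.56 (adjusted p = 0.223) and 0.34 (adjusted p = 0.193).

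The 2 lower members were Trim8 and Trim9. Trim8 was at 32.2, 55.7 and 29.8 CPM in particle islets against 67.0 to 93.3 CPM in control islets, without overlap, and fell by 1.06 on the log2 scale (SE 0.268, adjusted p = 0.0225). The Trim8 call did not survive leaving out replicate 1 or 3 of either group (adjusted p up to 0.09). Trim9 fell by 1.79 on the log2 scale (SE 0.482, adjusted p = 0.029), with a log2 fold change of -2.69 without particle replicate 2, and it was not called without replicate 2 or 3 of the controls or replicate 1 or 3 of the particle group (up to 0.0978). DESeq2 called 15 members higher and 4 lower, adding Trim37 and Trim41, against 13.6% and 11.3% of all genes. The calls of Trim25 and Trim26 were lost without any 1 of the 3 control libraries or without particle replicate 1 (adjusted p up to 0.112). Those of Trim6, Trim17 and Trim72 were lost without control replicate 1 or 3, inflamed replicate 1 or particle replicate 3, those of Trim6 and Trim72 also without control replicate 2, and those of Trim6 and Trim17 also without particle replicate 1 (adjusted p up to 0.203). In a limma fit on log2(FPKM + 1) the calls of Trim67, Trim30d and Trim69 were lost (adjusted p = 0.0529, 0.144 and 0.0652). Those of Trim6, Trim17 and Trim72 were lost in that fit too. The log2 fold change of Trim72 was 4.03, or 5.07 without control replicate 3 and 2.37 without particle replicate 3. That of Trim17 was 2.41, or 3.10 without control replicate 2 and 1.54 without particle replicate 3. Trim5 had a log2 fold change of 3.72 (adjusted p = 0.0111), 4.68 without control replicate 2 and 3.03 without particle replicate 1, and Trim30d one of 4.90 (adjusted p = 0.00821), 5.97 without control replicate 3.

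Genes that work with the family were counted from lists by role. Of 24 tested genes of cytosolic and Toll-like sensing, with their adaptors and kinases, 18 rose and 2 fell (Tab1 and Zcchc3) in inflamed islets, with a median log2 fold change of 1.56, where all genes tested gave 20.7% higher, 19% lower and a median of 0.05. Irf7, a transcription factor that amplifies interferon production, rose from 4.95 ± 1.10 to 313 ± 82.1 CPM (log2 fold change 5.98, adjusted p = 1.23e-06) and Zbp1, a sensor of left-handed nucleic acids, from 0.138 ± 0.239 to 195 ± 28.4 CPM. Ddx58, the RIG-I sensor that Trim25 modifies, rose from 9.95 ± 0.904 to 73.8 ± 4.70 CPM. Against control, particle islets had 12 of these 24 higher and 0 lower, where all genes gave 11.4% and 5.92%.

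The list of 6 genes around Isg15, the ubiquitin-like protein made under interferon, held Isg15, Uba7, Ube2l6, Herc6, Usp18 and Ube2e2. All 6 rose in inflamed islets (100%, against 20.7% of all genes), with a median log2 fold change of 4.37. Of these, 5 were higher in particle islets than in control (83.3%, against 11.4% of all genes). Herc6, the mouse ligase of Isg15, rose from 2.33 ± 0.297 to 91.3 ± 13.6 CPM and Ube2l6, the E2 enzyme of Isg15, from 10.2 ± 1.34 to 298 ± 12.9 CPM. Of 20 genes of ubiquitin, E1 and general E2 enzymes 5 rose (25%, near the 20.7% of all genes) and 1 fell (5%, against 19%), with a median log2 fold change of 0.28 and with Ube2d3, an E2 partner of many RING ligases, at 427 ± 33.2 against 212 ± 20.6 CPM. Ube2e2 belongs to both of these lists. In particle islets Ube2d3 was the 1 gene of the 20 called against control (5% higher, against 11.4% of all genes).

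Of 13 partners of Trim28 in silencing, 1 was higher in inflamed islets (7.69%, against 20.7% of all genes) and 3 lower (23.1%, near the 19% of all genes), with a median log2 fold change of -0.02. Resf1 rose from 6.81 ± 0.928 to 33.1 ± 9.02 CPM, while the remodelers Chd3 and Chd4 fell from 361 ± 13.2 to 70.2 ± 25.8 CPM and from 254 ± 19.7 to 106 ± 19.0 CPM, and the heterochromatin protein Cbx5 fell as well. Against control, particle islets had 2 of the 13 higher (15.4%, near the 11.4% of all genes) and 1 lower (7.69%, near the 5.92% of all genes). Of 3 tested relatives with the TRIM fold under other names, Pml, the scaffold of nuclear bodies, rose from 42.4 ± 6.15 to 92.8 ± 26.6 CPM (log2 fold change 1.13, adjusted p = 0.0173), and Mid1 and Mid2 were not called. In particle against inflamed islets 0 genes of any of these 5 lists were called.

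Markers of further cell types gave mixed values. Endothelial markers (8 genes) summed to 31.7 to 78.6 CPM in control, 6.00 to 10.8 CPM in inflamed and 7.28 to 31.9 CPM in particle libraries, and stellate and pericyte markers (8 genes) to 63.3 to 217, 19.3 to 54.9 and 18.3 to 72.7 CPM. Of the endothelial markers 5 of 8 fell in inflamed islets (62.5%) and 0 were called in particle against control islets. Of the stellate and pericyte markers 2 of 8 (25%) and 1 of 8 (12.5%) were lower in these comparisons. Of all genes tested 19% were lower in inflamed and 5.92% in particle islets against control. Lymphocyte and neutrophil markers (11 genes) stayed at 34.5 CPM or below, with Cd3e, Ms4a1 and Nkg7 at 0 in every library. Duct markers (7 genes) summed to 638 to 762, 445 to 792 and 626 to 708 CPM, ranges that overlap. The defining beta cell markers Ins1, Ins2 and Iapp were detected in all 9 libraries.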

How the data were processed

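RNA of 3 control, 3 inflamed and 3 particle libraries was measured by RNA sequencing, with groups and replicate numbers taken from the sample titles. The deposited count table holds whole-number read counts per gene for 56748 genes, not normalized, and the authors' deposited FPKM table holds the same genes and libraries. The submitters' processing notes name HTSeq and DESeq2, without versions, and the mouse build GRCm39 (mm39). Aligner: not given in the sources used here, as is the use of strand in counting. Column names of the untreated libraries hold no word for their group, so these 3 were assigned after all others had been matched by name.

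The test was that of edgeR 4.0.16 (R 4.3.3; filterByExpr, TMM factors, robust quasi-likelihood fit over all 9 libraries, Benjamini-Hochberg over 17276 genes). SE is the log2 fold change divided by the root of the F statistic, and intervals are 95%. Floors of 3 counts cover counting error only. Members with all 9 values named were the 12 called members with the smallest adjusted p in each direction (the 5 smallest unadjusted p where none was called) and 18 members chosen by role. The family, the lists and the rules were chosen with earlier results of these data known. Promoter sequences are those of RefSeq on GRCm38.p6, since no GRCm39 sequence was used here. Alternatives were RLE factors, library totals, no filter, a stricter filter (1 CPM in 3 libraries), DESeq2 1.42.0, a fit of the compared groups, a replicate block, limma 3.58.1 on log2(FPKM + 1) or log2(FPKM + 0.1), and omission of each library. The procedure was tested on simulated data. No pair of libraries of the same group was alike within sampling noise, and pairs across groups were not checked.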

Additional observations from a re-analysis of the deposited data

How the results depend on the processing

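Of the 26 members called in inflamed against control islets, 15 were called in every alternative run (Trim5, Trim6, Trim9, Trim12a, Trim12c, Trim15, Trim21, Trim24, Trim25, Trim30a, Trim30d, Trim34a, Trim37, Trim41 and Trim67). The cause of the changes below was not tested. In that comparison 4 members were lower with library totals (9 in the fit reported), and omitting 1 library gave 4 to 10 lower members and 2278 to 3786 higher genes. Against inflamed islets, omitting 1 library gave 0 to 1 higher and 0 to 2 lower members, with 0 to 636 higher and 0 to 306 lower genes. Higher and lower genes there numbered 1 and 0 with library totals, 120 and 101 with no filter, 487 and 296 with DESeq2 (which called 1 lower member), 1 and 15 on log2(FPKM + 1), and 5 and 9 on log2(FPKM + 0.1). Against control, particle islets had 9 higher members on log2(FPKM + 1) and 4 lower members with DESeq2. Omitting 1 library gave 10 to 16 higher and 0 to 3 lower members, 887 to 2424 higher genes and 224 to 2121 lower genes. There genes numbered 3193 higher and 597 lower with library totals (1961 and 1022 in the fit reported), and lower genes numbered 1940 with DESeq2, 2017 on log2(FPKM + 1) and 1635 on log2(FPKM + 0.1). Library totals moved the median log2 fold change of all genes to 0.224, 0.129 and 0.317 in the 3 comparisons.

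Of 971 values of single members under an alternative, 861 kept direction and side of the threshold, 90 lost the threshold, 6 passed it and 14 changed sign. All 14 were members not called and near 0. Trim33 in inflamed against control islets was at -0.005297 with RLE factors, -0.01429 with no filter, -0.005026 with DESeq2, -0.0008496 in the fit of the compared groups, -0.009003 on log2(FPKM + 1) and -0.0135 on log2(FPKM + 0.1). Omitting 1 library gave -0.06903 to 0.1318 for Trim33 and -0.02573 to 0.4582 for Trim2.

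Deviations of same-numbered libraries from their group means correlated at -0.184 to 0.206. Libraries with different numbers were not compared in this way, so whether replicate numbers pair the libraries is not settled. With the replicate number as a block, 17 members were higher and 8 lower in inflamed against control islets (25 of the 26 calls shared, Trim68 lost), 13 higher and 2 lower in particle against control islets (Trim6 and Trim17 lost), and 0 in particle against inflamed islets. Depth limits the members with few counts, such as Trim6, Trim17, Trim69 and Trim72, most.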
